A study of Homo sapiens and Mus musculus with 21 samples.

Results

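BAP1 knockdown was described in the human mesothelioma cell line MSTO-211H. The comparison took 4 of the 21 RNA sequencing libraries in the series, chosen by line and hairpin in their labels. Of these, 2 libraries came from cells labelled with a BAP1 shRNA and 2 from cells labelled with a random shRNA. The same hairpin labels were carried by 4 libraries of a second human mesothelioma line, H2810, which entered the model and served for comparison. The series set out to profile mouse BNC and NC mesothelioma and the human lines H2810, MSTO-211H and H2731. MSTO-211H is an established line grown from the pleural fluid of a patient with biphasic mesothelioma, a tumour with both epithelioid and spindle-shaped cells. All 4 MSTO-211H libraries share the expression of a hairpin. Not given in the sources used here are the hairpin sequences, how many BAP1 hairpins were used, whether the cells were clones or pools, and the days between hairpin delivery and harvest. Nor do the labels say whether the 2 libraries of a group came from separate cultures, so the p-values measure only the spread between libraries. That spread was estimated from all 8 libraries of both lines, and replicates differed more in H2810 than in MSTO-211H.

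BAP1 is the catalytic subunit of the Polycomb repressive deubiquitinase, PR-DUB. The enzyme removes mono-ubiquitin from histone H2A, a mark written by Polycomb repressive complex 1 (PRC1), while Polycomb repressive complex 2 (PRC2) methylates histone H3 at silent genes. BAP1 is often inactivated in pleural mesothelioma and is known as a tumour suppressor of that tissue. The 2 Polycomb complexes keep developmental genes such as the HOX clusters silent in cells that do not need them.

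Poly-A RNA was sequenced to between 20924941 and 23217215 counts per MSTO-211H library, and between 21742 and 22030 genes had at least 1 count. Mitochondrial transcripts took between 3.92 and 4.68% of counts. Counts of replicate libraries differed by more than sampling noise, with a chi-square of 2.21 per degree of freedom in the random group and 2.18 in the shBAP1 group, against 16.5 and 16.3 in the H2810 groups. Each library was counted as 1 sample, though this spread cannot tell separate cultures from 2 libraries of the same culture. The line was checked against marker lists. Mesothelial markers summed to 9678 and 8968 CPM (counts scaled to library size) with the random hairpin and 11302 and 10764 CPM with the BAP1 hairpin. MSLN, the surface antigen mesothelin, had 3575, 3228, 3675 and 4028 counts, and WT1, a mesothelial transcription factor, 155, 156, 191 and 197 counts. MUC16 was listed at 0 counts. Of 13 leukocyte markers, CD3E, MS4A1 and FCGR3A were at 0 counts in all 4 libraries, and the summed level of the list was at most 3.52 CPM. Endothelial markers summed to between 47.6 and 51.6 CPM, with CDH5, VWF, KDR and CLDN5 at 1 to 10 counts in all. Fibroblast markers summed to 1085 and 1043 CPM with the random hairpin and 1288 and 1188 CPM with the BAP1 hairpin, and DPT was at 0. Of the 11 fibroblast markers tested, 2 were called higher and 5 lower, each of these by at least 2-fold, so that most called members went against the sum. The median was -1.12, and -0.45 without random replicate 1. CDKN2A, the tumour suppressor locus on chromosome 9 often lost in mesothelioma, had 5, 5, 6 and 10 counts, and its neighbour CDKN2B had 0 counts in every library, which allows up to 3 counts each. In bulk RNA of this kind, fewer cells of a type and less RNA per cell cannot be told apart.

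The targeted gene was checked first. BAP1 (ENSG00000163930) stood at 100.1 and 103 CPM with the random hairpin and 15.4 and 17.7 CPM with the BAP1 hairpin. Both knockdown libraries lay far below both controls, and the log2 fold change was -2.61 ± 0.13 (adjusted p = 6.07e-08), a 6.12-fold lower level. Among the 8 PR-DUB partner genes tested, 4 rose and none fell. KDM1B, a histone H3 demethylase that joins PR-DUB, went from 26.03 and 28.3 to 42.9 and 40.3 CPM (0.61 ± 0.06), and MBD6, the methyl-CpG-binding-domain partner, rose by 0.49 on the log2 scale. FOXK1 (0.28) and FOXK2 (0.22), the forkhead proteins that bring PR-DUB to DNA, were called slightly higher. The ASXL cofactors, which activate the enzyme, split in direction. ASXL2 went from 86.1 and 88.4 to 57.4 and 58.3 CPM (log2 fold change -0.59 ± 0.11, adjusted p = 0.00086), ASXL1 was called higher by 0.18, and ASXL3 had 0, 2, 0 and 0 counts. ASXL2 was thus lower in both knockdown libraries and ASXL1 was not. The calls of FOXK1, FOXK2 and ASXL1 were lost without random replicate 1 or shBAP1 replicate 1, with adjusted p from 0.0665 to 0.114, and those of FOXK1 and ASXL1 also without either of the other libraries (0.127 to 0.175).

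The opposing Polycomb complexes changed in single subunits more than in their summed direction. At an adjusted p under 0.05, calls covered 46.2% of all genes tested (21.7% higher, 24.5% lower), with a median log2 fold change of -0.02. Each list is set beside these values. The lists were chosen with earlier results of these data known, so this comparison is descriptive only. For list members, rose and fell mean called higher and called lower, and members not called may have fold changes of either sign. In the PRC2 list, 5 of 13 tested members rose and 3 fell, with a median log2 fold change of 0.15. EZH2, its methyltransferase, went from 52.01 and 55.1 to 63.3 and 65.3 CPM (0.27 ± 0.05). SUZ12 (0.24) and the histone-binding subunits RBBP4 (0.46) and RBBP7 (0.4) rose as well, so no core subunit fell. The accessory subunits, which choose where PRC2 binds, moved apart. PHF19, the Polycomb-like protein PCL3, stood at 35.02 and 36.3 CPM with the random hairpin and 14.1 and 15.6 CPM with the BAP1 hairpin (log2 fold change -1.26 ± 0.07, adjusted p = 1.13e-07). Its relative MTF2, the Polycomb-like protein PCL2, stood at 17.03 and 14.8 CPM with the random hairpin and 26.8 and 26.1 CPM with the BAP1 hairpin (0.73 ± 0.08, adjusted p = 1.63e-05). The groups did not overlap for either, with PHF19 lower and MTF2 higher after the knockdown. EPOP (-0.69) and LCOR (-0.53), further accessory genes, fell.

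In the PRC1 list, 5 of 23 tested members rose and 8 fell, with a median log2 fold change of 0.05. RNF2, the main E3 ligase that ubiquitinates histone H2A, went from 25.3 and 23.6 to 15.97 and 14.9 CPM (-0.66 ± 0.08), while RING1, its paralog, was called higher by 0.23. The RING1 call was lost without random replicate 1 (adjusted p = 0.126) or shBAP1 replicate 1 (0.147). The PCGF subunits that pair with the ligases accounted for 3 of the falls: BMI1 (-0.52), PCGF5 (-0.3) and PCGF1 (-0.39, adjusted p = 0.0536 without random replicate 2). Of 5 chromodomain readers 3 were called higher, among them CBX6 at 0.26, and 0 lower. The lowest fold change of a reader, not called, was -0.29. The CBX2 call was lost by DESeq2 (adjusted p = 0.124), without a filter on low counts (0.0782) and with a GC offset (0.156). With an offset for the GC content of transcripts, the PRC1 count was 3 higher and 9 lower and the PR-DUB count 2 higher and 2 lower. By DESeq2, or without random replicate 1 or shBAP1 replicate 1, 3 PRC1 genes were higher. Among enzymes that act against Polycomb marks, 7 of 23 rose and 1 fell, and 12 rose and 3 fell in the fit with the replicate block. KDM6B, an H3K27 demethylase, went from 47.9 and 51.5 to 72.2 and 82.1 CPM (0.63 ± 0.09), and SMARCA4, the SWI/SNF remodelling ATPase, went from 284 and 259 to 439 and 424 CPM (0.67 ± 0.07).

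The knockdown was accompanied by many small changes and fewer large ones. The test called 3440 genes as higher and 3887 as lower among 15872, and 4390 of these 7327 changed by less than 1.5-fold (59.9%). At a fold change of at least 2, 438 genes were higher (2.76% of those tested) and 1030 lower (6.49%), so falls outnumbered rises among large changes. At 4-fold or more the counts were 109 higher and 212 lower, and at 8-fold or more 36 and 56. The 2 groups of libraries did not overlap for 75.6% of all genes tested. Called shares rose with expression level while the share with a 2-fold change fell: 17.4% and 16.5% of genes with a mean log2 CPM under 0, against 57.6% and 4.35% at a mean log2 CPM of 4 to 6. By type, protein-coding genes gave 3253 higher and 3574 lower of 13051 tested, and long noncoding RNAs 139 higher and 240 lower of 1865.

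**Figure D1:**
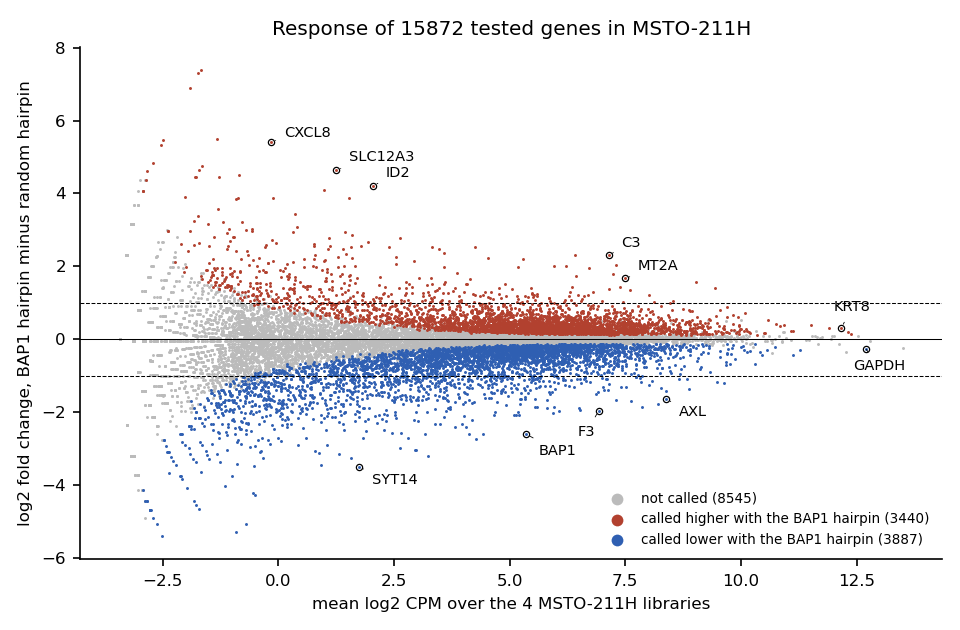
Log2 fold change (shBAP1 minus random hairpin) of each of 15872 tested genes in MSTO-211H, plotted against its mean log2 CPM over the 4 libraries, with colours for genes called higher (3440), called lower (3887) and not called, and dashed lines at a 2-fold change. Large fold changes sit mostly at low levels, and more called genes lie past the lower dashed line (1030) than past the upper one (438).

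Where the mean log2 CPM was 1 or more, the largest rises were led by SLC12A3, a sodium-chloride cotransporter best known from the kidney. It stood at 0.335 and 0.530 CPM with the random hairpin and 12.2 and 9.91 CPM with the BAP1 hairpin (log2 fold change 4.66 ± 0.27). ID2, an inhibitor of basic helix-loop-helix transcription factors, stood at 0.957 and 0.868 CPM with the random hairpin and 17.2 and 16.96 CPM with the BAP1 hairpin (4.22 ± 0.16, adjusted p = 1.48e-08). Both went from near background to a clear level in both knockdown libraries. ERVFRD-1, the retroviral envelope protein syncytin-2, went from 0.622 and 0.771 to 10.6 and 10.1 CPM (3.88 ± 0.19). FGFR3, a fibroblast growth factor receptor, went from 0.957 and 0.916 to 7.31 and 7.05 CPM (2.93 ± 0.19). CCL5, a chemokine that attracts T cells, went from 2.01 and 2.603 to 16.2 and 15.5 CPM (2.77 ± 0.11). In these 3 genes too the knockdown libraries agreed within a narrow range and lay above both controls. SAMD11, a SAM domain gene, went from 8.56 and 7.09 to 44.2 and 46.5 CPM (2.54 ± 0.09), and TSPAN8, a tetraspanin, rose by 2.53. The other members of the 12 were the zinc finger gene ZNF467 (2.86), the potassium channel gene KCNK2 (2.56), OMG (2.55), which encodes oligodendrocyte myelin glycoprotein, the immunoglobulin heavy chain gene IGHE (2.78) and LINC02593 (2.66).

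The largest falls included several neuronal and surface genes. SYT14, a synaptotagmin, stood at 10.6 and 11.2 CPM with the random hairpin and 0.818 and 1.06 CPM with the BAP1 hairpin (log2 fold change -3.52 ± 0.18, adjusted p = 2.21e-07). BEX1, a small brain-expressed X-linked gene, went from 27.9 and 28.5 to 2.84 and 3.26 CPM (-3.2 ± 0.14). HRK, a BH3-only gene that promotes apoptosis, went from 20.3 and 23.4 to 2.79 and 2.51 CPM (-3.05 ± 0.13). Each of these genes was more than 5-fold lower in both knockdown libraries. THBD, thrombomodulin, an anticoagulant receptor and mesothelial marker, went from 23.5 and 20.97 to 2.55 and 2.86 CPM (-3.03 ± 0.13). CA9 (-2.98) and CA12 (from 49.7 and 50.1 to 7.98 and 7.05 CPM, -2.73 ± 0.07) encode carbonic anhydrases of the cell surface. CRYBG1 (-3.26), the focal adhesion gene TGFB1I1 (-3.16), the troponin gene TNNT1 (-2.91), the neural transcription factor POU3F2 (-2.7), the aldehyde oxidase AOX1 (-2.62) and LINC01111 (-2.72) completed the 12.

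Some genes crossed between near silence and expression. By a rule of at most 10 summed counts in 1 group and at least 50 in the other, 13 genes were gained and 18 lost with the BAP1 hairpin. CXCL8, the neutrophil chemokine interleukin-8, had 1 and 3 counts with the random hairpin and 99 and 91 with the BAP1 hairpin, a ratio of 45.5-fold (95% interval 17.5 to 169) that covers counting error only. PTPRC, the leukocyte phosphatase CD45, went from 2 and 6 to 33 and 37 counts, and ITGAM, the integrin CD11b, from 4 and 3 to 29 and 31 counts. Both leukocyte genes stayed at a low level while CD3E, MS4A1 and FCGR3A were at 0. The other leukocyte markers tested were called lower: ADGRE1, a macrophage receptor, went from 25 and 11 to 1 and 3 counts, and CORO1A, a coronin, from 17 and 7 to 4 and 4 counts. The CORO1A call was lost without random replicate 1 (adjusted p = 0.387) or either shBAP1 library (0.117 and 0.148). MOB3B (from 4 and 4 to 60 and 66 counts), a kinase activator-like gene, LYPD1 (from 5 and 3 to 34 and 33), KCTD4 (from 1 and 3 to 33 and 31), LINC00326 (from 1 and 2 to 40 and 37) and DEFB1 (from 2 and 2 to 30 and 35), a defensin, were also gained. Among the losses, KRT34, a hair keratin, had 45 and 40 counts with the random hairpin and 2 and 0 with the BAP1 hairpin, a ratio of 44.4-fold (95% interval 11.9 to 372). P2RX7, an ATP-gated channel, went from 38 and 47 to 4 and 5 counts, and PDCD1LG2, the checkpoint ligand PD-L2, from 40 and 36 to 4 and 5 counts. MUC3A (from 54 and 43 to 2 and 3 counts), HYDIN (from 58 and 47 to 3 and 0), GPM6A (from 46 and 37 to 2 and 8), LINC02057 (from 45 and 49 to 4 and 1) and LINC01291 (from 40 and 37 to 3 and 4) followed. HYDIN and MUC3A have near-identical copies in the genome, so their counts are uncertain, and HYDIN was not called by DESeq2 (adjusted p = 0.419).

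At the other end of the scale, the 10 called genes with the largest difference in CPM were mostly cytoskeletal and glycolytic. GAPDH, a glycolytic enzyme, went from 7299 and 7422 to 6138 and 5963 CPM (-0.28 ± 0.05), whereas PKM, pyruvate kinase, went from 2624 and 2460.3 to 3389 and 3304 CPM (0.4 ± 0.05). The keratin gene KRT8 (0.31 ± 0.06) and the actin gene ACTB (0.3 ± 0.06) rose modestly. KRT18, the partner keratin, was called at 0.18 ± 0.05, a call lost without random replicate 2 (adjusted p = 0.1) or shBAP1 replicate 1 (0.127). KRT80, a keratin, went from 443 and 404 to 1124 and 1119 CPM (1.4 ± 0.05). CRIM1, a transmembrane protein that binds BMPs, fell from 1195 and 1202 to 522 and 518 CPM (-1.2 ± 0.06). ITGA3, an integrin subunit (-1.17 ± 0.05), the caveolar coat gene CAV1 (-0.43 ± 0.05) and the filamin FLNC (-0.67 ± 0.11) fell.

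**Figure D2:**
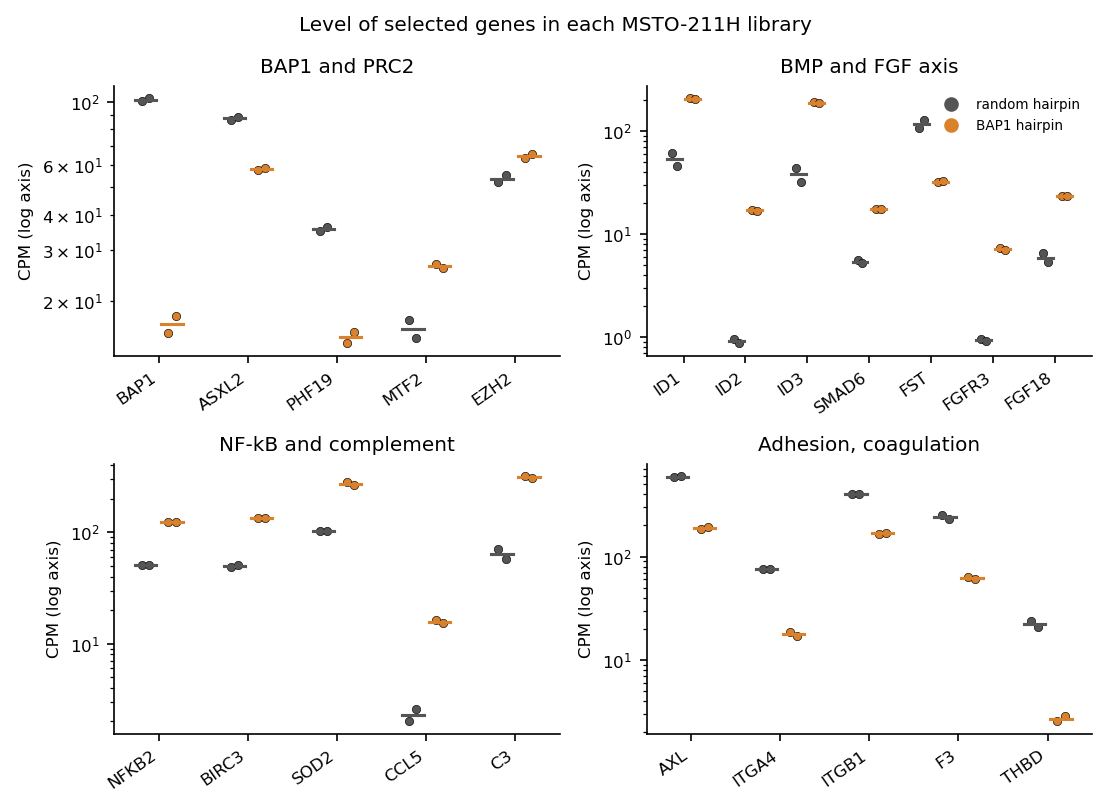
CPM (log axis) of selected genes in each MSTO-211H library, with points for single libraries, bars for group means, and colours for the random and the BAP1 hairpin. The 2 points of a group lie close together, for instance from 0.957 and 0.868 to 17.2 and 16.96 CPM for ID2 and from 584 and 599.96 to 185 and 191 CPM for AXL.

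HOX genes, the homeobox regulators of body patterning and classical Polycomb targets, were mainly lower after BAP1 knockdown. In the list, 0 of 33 tested members were called higher and 23 lower, against 24.5% lower over all genes. The median log2 fold change was -0.52. The other 10 were not called, and their log2 fold changes reached 0.47. At an unadjusted p under 0.05, 0 HOX genes were higher and 24 lower by edgeR, and DESeq2 and limma-voom called 17 and 21 lower and 0 higher. The falls reached all 4 clusters: 6 of 11 in HOXA, 5 of 9 in HOXB, 6 of 7 in HOXC and 6 of 6 in HOXD. HOXC13, at the 5′ end of its cluster, stood at 13.4 and 12.5 CPM with the random hairpin and 4.81 and 4.98 CPM with the BAP1 hairpin (-1.4 ± 0.13, adjusted p = 7.43e-06). HOXD13 went from 3.83 and 3.47 to 0.914 and 1.15 CPM (-1.81 ± 0.24), HOXC10 from 1.196 and 1.21 to 0.144 and 0.264 CPM (-2.5 ± 0.35) and HOXA7 from 0.718 and 0.530 to 0.0481 and 0 CPM (-4.45 ± 0.79). For these 4 genes both knockdown libraries lay below both controls. Smaller falls were those of HOXB9 (from 48.2 and 50.7 to 36.8 and 40.1 CPM, -0.36 ± 0.06) and HOXB2 (from 16.7 and 16.5 to 11.5 and 11.5 CPM, -0.53 ± 0.07). Without random replicate 2, 15 HOX genes were called lower and none higher. The strand setting of the counting was not given, so reads of HOX genes and of their antisense partners cannot be told apart.

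Clustered protocadherins, which give single neurons a surface identity, fell in the same direction. Of 53 genes entered, 32 were tested, and 0 of 32 rose and 17 fell, with a median log2 fold change of -1.06. The beta cluster on chromosome 5 accounted for 12 of the falls among 13 tested, with a median of -1.62. PCDHB2 went from 11.1 and 8.92 to 5.002 and 4.36 CPM (-1.1 ± 0.15, adjusted p = 0.000115), and PCDHB9 fell by 2.34 on the log2 scale. In the gamma cluster 4 of 18 fell. At an unadjusted p under 0.05 edgeR had 0 higher and 21 lower. With DESeq2 0 clustered protocadherins were called higher and 11 lower, and with the stricter filter, which tested fewer of them, 8. These genes are near-identical over long stretches, and reads with several matches may have been split or dropped, so values of single members are uncertain. PCDHA6 and 7 genes of the beta cluster also formed 1 of the 5 longest runs of neighbouring tested protein-coding genes called in the same direction, at chr5:140827958-141191541 with a median of -1.83.

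**Figure D3:**
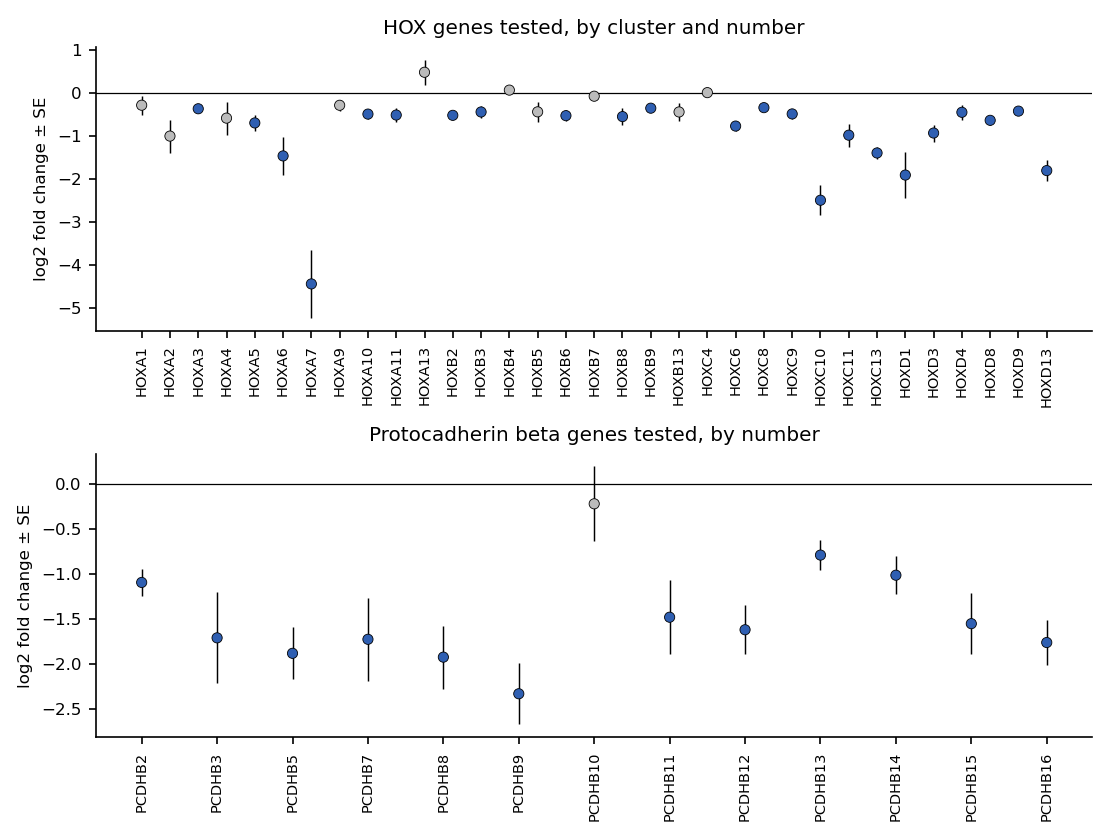
Log2 fold change (shBAP1 minus random hairpin, ± SE) in MSTO-211H of each tested HOX gene, by cluster, and of each tested beta protocadherin. None of the 23 called HOX genes and none of the 12 called beta protocadherins lies above 0.

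Zinc finger genes of chromosome 19 were looked at after such a run had been seen. A stretch of 10 neighbours at chr19:57466663-57644041, from ZNF772 to ZNF211, fell with a median of -0.76. Over 238 tested zinc finger (ZNF) genes of chromosome 19, which encode mainly KRAB repressors, 8 were called higher and 104 lower, with a median of -0.37. Over 273 on other chromosomes, 24 were higher and 90 lower, with a median of -0.14. Transcripts of the chromosome 19 set had a median GC content of 42.4%, against 48.3% over all genes, and with an offset for GC content 103 were still called lower, with a median of -0.34. Many of these genes are near copies of each other. The other long runs were 10 falls at chr3:146515180-149962139 from PLSCR1 to RNF13 (median -0.69), which include TM4SF1 and the Hippo effector WWTR1, and 9 rises at chr1:111680630-112707434 from INKA2 to RHOC (median 0.58), which include WNT2B. A run of 9 falls on chromosome 8 went from DECR1 to CIBAR1 (median -0.77).

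Other developmental transcription factors held changes in both directions. In that list, 18 of 59 tested members rose and 5 fell, with a median log2 fold change of 0.07, and the count was 12 higher and 10 lower with a GC offset and 10 higher and 3 lower without random replicate 2. The falls numbered 2 by DESeq2 and 2 to 3 without shBAP1 replicate 1 or 2. GATA2, a zinc finger regulator of blood and vessel cells, went from 52.8 and 48.6 to 104 and 100.2 CPM (1.01 ± 0.06), and FOXA1, an endodermal pioneer factor, from 13.6 and 14.8 to 28.6 and 27.8 CPM (0.99 ± 0.07). In both genes the groups were apart. FOXC2, a forkhead factor of mesenchyme, fell by 1.18 on the log2 scale from 6.27 and 5.25 to 2.93 and 2.16 CPM. GATA4, a factor expressed in the serosal mesothelium, measured 29.5 and 30.6 CPM with the random hairpin and 30.3 and 29.3 CPM with the BAP1 hairpin and was not called. Among neuronal and synaptic genes, 3 of 26 rose and 12 fell, with a median of -0.47 that moved to -0.07 without random replicate 1. The rises numbered 1 without random replicate 1, random replicate 2 or shBAP1 replicate 2. Beside SYT14 and BEX1, the adhesion gene L1CAM fell from 26.8 and 25.4 to 8.66 and 8.504 CPM (-1.6 ± 0.08).

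Most inhibitors of differentiation (ID genes) rose, and genes of bone morphogenetic protein (BMP) signalling held changes in both directions. BMP ligands bind type I and II receptors, which phosphorylate SMAD proteins, and ID1, ID2, ID3, SMAD6, SMAD7 and ATOH8 are among the known targets. Of 4 tested ID genes, 3 rose at least 2-fold, and ID4 was not called, with a log2 fold change of -2.36. ID1 stood at 61.6 and 45.7 CPM with the random hairpin and 209.99 and 205 CPM with the BAP1 hairpin (1.95 ± 0.10), and ID3 at 44.1 and 32.5 CPM with the random hairpin and 192 and 187 CPM with the BAP1 hairpin (2.31 ± 0.10, adjusted p = 3.1e-08). The 2 control libraries differed more for these genes than the knockdown libraries did, yet both lay far below them. ATOH8, a basic helix-loop-helix factor, went from 4.78 and 3.47 to 23.9 and 23.6 CPM (2.52 ± 0.11). The feedback inhibitors SMAD6 (from 5.598 and 5.25 to 17.4 and 17.6 CPM, 1.69 ± 0.12) and SMAD7 (0.97 ± 0.11) rose, as did HES1 (1.49 ± 0.11), a repressor also activated by Notch. Over all 12 inhibitors tested, 3 rose and 5 fell. FST, follistatin, which binds activins, stood at 107 and 129.8 CPM with the random hairpin and 32.2 and 32.6 CPM with the BAP1 hairpin (-1.87 ± 0.09, adjusted p = 3.41e-08). NOG, noggin (-1.29 ± 0.21), GREM1, gremlin (-2.05 ± 0.30), and CHRDL1 (-1.18 ± 0.17), which hold BMP ligands away from their receptors, fell. CHRD, chordin, another secreted inhibitor, was called higher (1.49 ± 0.52) from 4 and 3 to 10 and 11 counts, a call lost by DESeq2 (adjusted p = 0.198) and without any 1 of the 4 MSTO-211H libraries (0.106 to 0.178). Among 9 ligands 3 rose and 1 fell: BMP6 (0.93 ± 0.14) and INHBE (2.06 ± 0.16) were higher and INHBA, the activin A subunit, lower (-1.45 ± 0.17). Receptors changed little, with 1 of 8 called: ACVR2B at 0.41, a call lost without random replicate 1 (adjusted p = 0.129) or shBAP1 replicate 1 (0.0881). Over all 39 tested members, 13 rose and 7 fell, with a median of -0.02.

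In the related TGF-beta list, 6 of 24 tested members rose and 10 fell, with a median log2 fold change of -0.12. The targets fell: 5 of 7, and none rose (0 higher at an unadjusted p under 0.05 by edgeR, and 0 higher and 3 lower by DESeq2). TGFB1I1, a focal adhesion gene among the 12 largest falls, went from 6.94 and 7.09 to 0.818 and 0.749 CPM (-3.16 ± 0.19, adjusted p = 2.67e-07), with no overlap of the groups. Within the signalling genes, SMAD3 rose (0.79 ± 0.06) and SMAD2 fell (-0.7 ± 0.05), and the corepressor SKIL rose (0.91 ± 0.07).

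Fibroblast growth factor (FGF) genes held changes in both directions among receptors, ligands and adaptors. The 4 tested receptors were all called. FGFR3 rose as given above, FGFRL1, a receptor without a kinase domain, went from 73.6 and 71.3 to 121 and 125 CPM (0.76 ± 0.05), and FGFR1 fell from 37.8 and 40.4 to 29.96 and 29.7 CPM (-0.39 ± 0.06). FGFR4 was called higher by 0.51, but not without random replicate 2 (adjusted p = 0.0889) or shBAP1 replicate 2 (0.0952). FGFR2 had 2, 0, 4 and 4 counts. Of the ligands, FGF18 went from 6.51 and 5.35 to 23.3 and 23.7 CPM (1.99 ± 0.12, adjusted p = 2.44e-07), FGF19 rose (1.85 ± 0.26), FGF2 rose slightly (0.44 ± 0.05), and FGF5 fell from 107 and 103 to 48.6 and 47.7 CPM (-1.12 ± 0.06). Of 6 adaptors and cofactors 3 fell, among them the adaptor GAB1 (-1.28 ± 0.19) and the adhesion cofactor FLRT2 (-1.91 ± 0.11). FGFBP1, a carrier of FGF ligands, was called higher (1.09 ± 0.38), a call lost by DESeq2 (adjusted p = 0.338) and without any 1 of the 4 MSTO-211H libraries (0.123 to 0.182). Downstream, in the list of ERK feedback and output genes, 12 of 28 tested members rose and 7 fell, with a median log2 fold change of 0.21. DUSP6, the ERK phosphatase, went from 4.35 and 4.001 to 11.7 and 11.98 CPM (1.5 ± 0.13), and ETV5, an ETS factor, from 15.4 and 16.1 to 30.9 and 30.9 CPM (0.98 ± 0.06). DUSP5, a nuclear ERK phosphatase, fell from 63.97 and 67.6 to 30.7 and 29.7 CPM (-1.12 ± 0.08).

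Other receptor tyrosine kinases and their ligands were mainly lower: 6 of 32 tested members rose and 15 fell, with a median log2 fold change of -0.39. AXL, a receptor of mesenchymal cells, stood at 584 and 599.96 CPM with the random hairpin and 185 and 191 CPM with the BAP1 hairpin (-1.65 ± 0.05, adjusted p = 3.44e-09). Both knockdown libraries lay below both controls. ERBB3 (-1.59 ± 0.16) and PDGFRB (-1.18 ± 0.07) fell at least 2-fold, and ERBB2 (-0.45 ± 0.05) and MET (-0.42 ± 0.06) fell by less. EGFR was called lower (-0.4 ± 0.12), but not without any 1 of the 4 MSTO-211H libraries (adjusted p from 0.0625 to 0.115). TYRO3, a relative of AXL, rose from 13.6 and 13.5 to 32.2 and 29.7 CPM (1.19 ± 0.07), and VEGFC, a lymphatic growth factor, rose (1.55 ± 0.14). GAS6, the ligand of AXL and TYRO3, fell by 0.53 on the log2 scale.

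Of the Wnt genes, 13 of 37 rose and 13 fell. Among 8 ligands 5 rose and 2 fell. WNT2B went from 4.83 and 4.29 to 14.1 and 15.1 CPM (1.68 ± 0.17), and WNT5A, a ligand that acts without beta-catenin, fell from 237 and 226 to 134 and 125 CPM (-0.84 ± 0.06). Among 13 receptors 2 rose and 6 fell. DKK1, a secreted antagonist, stood at 496 and 493 CPM with the random hairpin and 198 and 194 CPM with the BAP1 hairpin (-1.34 ± 0.05, adjusted p = 1.61e-08), with no overlap. Without shBAP1 replicate 2 the Wnt genes called lower numbered 8. The feedback genes NKD1 (2.19 ± 0.27) and NKD2 (0.91 ± 0.10) rose. In the Notch list, 5 of 14 rose and 3 fell (5 falls with a GC offset, 1 with the stricter filter), with NOTCH3 (1.13 ± 0.10) and the ligand JAG1 (0.97 ± 0.07) higher and NOTCH2 lower (-0.75 ± 0.16). In the retinoid list, 7 of 13 rose and 1 fell, with 4 higher by DESeq2 or without random replicate 1. RDH10, which makes retinal from vitamin A, went from 86.1 and 70.96 to 333 and 309 CPM (2.03 ± 0.08), and CYP26B1, which breaks down retinoic acid, from 0.718 and 0.386 to 2.36 and 2.47 CPM (2.12 ± 0.25).

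**Figure D4:**
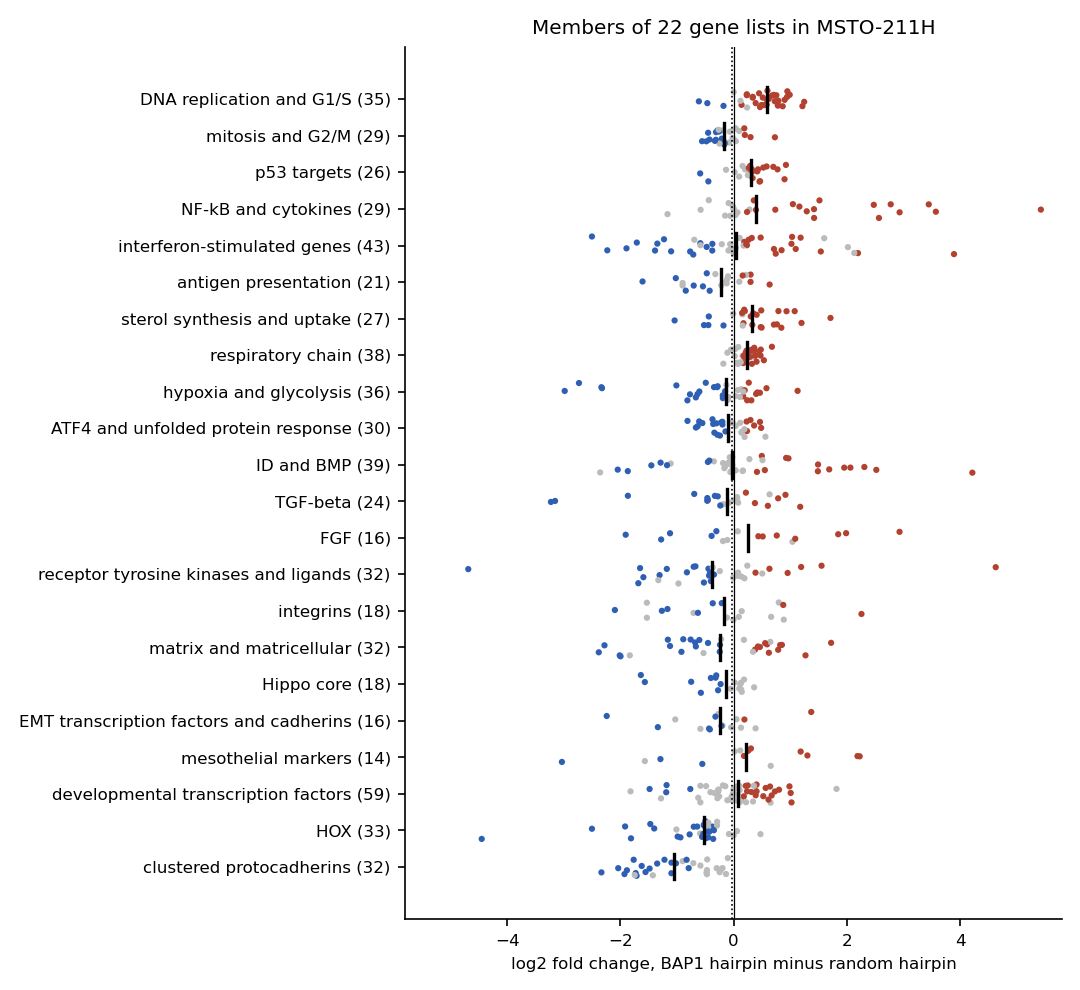
Log2 fold change (shBAP1 minus random hairpin) in MSTO-211H of each tested member of 22 gene lists, with a black bar at the list median and a dotted line at the median of all 15872 genes (-0.02). DNA replication, NF-kB and p53 genes sit mostly above the dotted line, and HOX genes and clustered protocadherins below it.

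Among genes that mark an epithelial-mesenchymal transition (EMT), more were called lower than higher, and 8 of 16 were not called. In the list of EMT factors and cadherins, 2 of 16 tested members rose and 6 fell, with a median log2 fold change of -0.24. SNAI2, the repressor Slug, went from 10.9 and 10.5 to 2.21 and 2.29 CPM (-2.24 ± 0.10, adjusted p = 3.29e-08). ZEB2, a repressor of epithelial genes, went from 51.7 and 51.8 to 20.2 and 20.6 CPM (-1.34 ± 0.06), whereas its paralog ZEB1 was called slightly higher (0.19 ± 0.05). The ZEB1 call was lost without random replicate 1 (adjusted p = 0.0936) or shBAP1 replicate 2 (0.138). TWIST1 (-0.44 ± 0.09), the cadherin CDH2 (-0.32 ± 0.05) and vimentin, VIM (-0.21 ± 0.05), fell by less than 1.5-fold. CDH1, the epithelial E-cadherin, had 2, 3, 5 and 7 counts, and EPCAM 1, 1, 1 and 0. Epithelial junction genes were mixed: 9 of 26 rose and 7 fell. Of 14 tested mesothelial markers, 7 rose and 3 fell. CALB2, calretinin, the diagnostic marker of epithelioid mesothelioma, stood at 12.1 and 9.401 CPM with the random hairpin and 50.9 and 49.6 CPM with the BAP1 hairpin (2.23 ± 0.10, adjusted p = 2.42e-08). UPK3B, a uroplakin of mesothelium, went from 19.95 and 16.8 to 87.6 and 79.97 CPM (2.19 ± 0.09). Both markers rose about 4-fold with no overlap. ITLN1, intelectin (1.18 ± 0.10), and KRT7 (1.3 ± 0.09) rose, while THBD and TM4SF1 (-1.29 ± 0.07) fell. MSLN was not called.

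Integrins link cells to matrix as pairs of an alpha and a beta subunit. Of 11 alpha subunits 5 were called lower and none higher, nor was any higher at an unadjusted p under 0.05 by edgeR or called higher by DESeq2. ITGA4 stood at 76.4 and 76.3 CPM with the random hairpin and 18.7 and 17.01 CPM with the BAP1 hairpin (-2.1 ± 0.07, adjusted p = 8.58e-09), and ITGB1, the beta subunit shared by most pairs, at 402 and 404 CPM with the random hairpin and 167 and 167 CPM with the BAP1 hairpin (-1.27 ± 0.05). Both genes were lower in both knockdown libraries, ITGA4 by about 4-fold. ITGB8 (from 2.63 and 2.603 to 14.1 and 11.1 CPM, 2.26 ± 0.18) and ITGB4, the hemidesmosome subunit (0.88 ± 0.07), rose. Among matrix genes, 11 of 15 glycoproteins and crosslinkers fell and 1 rose, while 6 of 9 collagens outside the fibrillar and type VI groups rose and 1 fell. CCN2, a matricellular growth factor, went from 53.3 and 48.4 to 12.9 and 12.5 CPM (-2.0 ± 0.07, adjusted p = 1.02e-08). LUM, lumican (-2.28 ± 0.24), fibronectin, FN1 (-1.16 ± 0.21), and biglycan, BGN (-0.89 ± 0.06), fell. COL4A5, a basement membrane collagen, went from 49.9 and 44.8 to 159 and 153 CPM (1.72 ± 0.08), and COL7A1 rose (1.27 ± 0.31). In the actin and focal adhesion list, 7 of 29 rose and 12 fell, with 3 higher when random replicate 2 or either shBAP1 library was left out. LPP, a focal adhesion protein, fell from 92.2 and 90.97 to 25.7 and 24.3 CPM (-1.87 ± 0.18).

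Hippo signalling restrains the coactivators YAP1 and WWTR1, which act through TEAD factors. Of 18 core genes none rose and 9 fell by edgeR, with 2 higher at an unadjusted p under 0.05, and DESeq2 called 0 higher and 8 lower. YAP1 went from 137 and 135 to 82.5 and 79.4 CPM (-0.75 ± 0.05), and FAT4, an atypical cadherin, from 64.8 and 67.7 to 20.8 and 21.7 CPM (-1.64 ± 0.27). LATS2 (82.5 and 78.2 CPM with the random hairpin and 89.5 and 86.7 CPM with the BAP1 hairpin) and NF2 (92.003 and 92.7 CPM with the random hairpin and 101 and 96.4 CPM with the BAP1 hairpin), kinase and scaffold of the pathway and both mutated in mesothelioma, were not called. Of 25 YAP/TEAD target genes 5 rose and 9 fell. CCN2 and CCN1 (-0.76 ± 0.04) fell, and ANKRD1 (from 60.8 and 56.9 to 136 and 134 CPM, 1.2 ± 0.05) and NUAK2 (1.29 ± 0.10) rose. This split depended on scaling, with 8 higher and 9 lower under DESeq2-type size factors. In a fit of the 4 MSTO-211H libraries alone, 10 targets were higher and 10 lower, and 6 Hippo core genes were higher and 9 lower.

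Genes of coagulation and fibrinolysis were lower: 9 of 13 fell and 3 rose, with a median of -1.20. F3, tissue factor, which starts coagulation, stood at 250.1 and 231 CPM with the random hairpin and 62.9 and 60.1 CPM with the BAP1 hairpin (-1.97 ± 0.06, adjusted p = 6.07e-09). PROCR, the protein C receptor (from 8.18 and 8.97 to 1.59 and 1.41 CPM, -2.51 ± 0.18), and PLAT, tissue plasminogen activator (from 42.5 and 42.04 to 14.6 and 15.5 CPM, -1.49 ± 0.06), fell with it. Complement genes went the other way: 5 of 8 rose and 1 fell. C3, the central complement component, stood at 70.2 and 57.1 CPM with the random hairpin and 319.5 and 309 CPM with the BAP1 hairpin (2.3 ± 0.10, adjusted p = 2.44e-08). The 2 groups of C3 values were more than 4-fold apart.

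Rises outnumbered falls among the NF-kB genes, and 12 of 29 were not called. NF-kB factors are held by inhibitors such as NFKBIA, and they switch on chemokines and survival genes. In the list, 17 of 29 tested members rose and 0 fell, with a median log2 fold change of 0.39, against 21.7% higher over all genes. At an unadjusted p under 0.05 edgeR had 2 lower, and DESeq2 called 17 higher and 0 lower. In other fits 1 or 2 members were called lower: 1 under DESeq2-type size factors, without a filter, with the stricter filter, with the replicate block and without random replicate 1 or any H2810 library, and 2 with the 4 MSTO-211H libraries alone. RELB (from 9.43 and 10.03 to 28.6 and 27.1 CPM, 1.52 ± 0.08) and NFKB2 (from 50.8 and 50.8 to 125 and 124 CPM, 1.29 ± 0.05, adjusted p = 1.48e-08) encode the subunits of the noncanonical branch. The inhibitor NFKBIA rose from 68.9 and 61.4 to 135 and 134 CPM (1.05 ± 0.06). BIRC3, an apoptosis inhibitor, went from 49.04 and 51.1 to 135 and 134 CPM (1.42 ± 0.05), and SOD2, mitochondrial superoxide dismutase, from 103 and 102 to 283 and 266 CPM (1.42 ± 0.05). All 5 of these genes had both knockdown libraries above both controls. Chemokines and cytokines came from low levels: CCL20 (from 0.287 and 0.530 to 3.27 and 3.04 CPM, 2.93 ± 0.32) and IL34 (from 0.335 and 0.337 to 3.56 and 3.88 CPM, 3.45 ± 0.28), beside CCL5 and CXCL8.

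Interferon-stimulated genes split into opposite directions. In this list, 16 of 43 tested members rose and 14 fell, with a median log2 fold change of 0.04. PARP9 went from 16.3 and 16.4 to 3.896 and 3.08 CPM (-2.23 ± 0.10, adjusted p = 3.13e-08), and DTX3L, its partner E3 ligase, from 24.7 and 24.01 to 6.16 and 6.92 CPM (-1.89 ± 0.09). GBP1, a guanylate-binding protein, fell from 11.5 and 11.2 to 2.36 and 1.67 CPM (-2.5 ± 0.13), and EPSTI1 fell by 1.71 on the log2 scale. Rises came from OAS2, a sensor of double-stranded RNA (from 0.431 and 0.868 to 3.22 and 2.78 CPM, 2.2 ± 0.23), the ubiquitin-like ISG15 (from 8.899 and 10.9 to 22.9 and 22.2 CPM, 1.18 ± 0.09) and IFIT1 (from 14.5 and 13.9 to 24.3 and 22.3 CPM, 0.71 ± 0.08). CXCL10, a chemokine, was also called higher (from 0 and 0.0482 to 0.481 and 0.397 CPM, 3.89 ± 0.84), but its large fold change rests on few counts. The groups did not overlap for any of these 8 genes. Sensors differed as well, with TLR3 lower (from 12.1 and 11.2 to 2.36 and 3.08 CPM, -2.09 ± 0.18) and CGAS (0.68 ± 0.07) and STING1 (0.61 ± 0.06) higher. In antigen presentation, 4 of 21 rose and 7 fell. HLA-B went from 185 and 188 to 114 and 115 CPM (-0.71 ± 0.05), and HLA-C (-0.48 ± 0.05), HLA-E (-0.54 ± 0.05) and the immunoproteasome genes PSMB8 (-0.85 ± 0.06) and PSMB9 (-1.02 ± 0.10) fell. TAP1, a peptide transporter (0.64 ± 0.05), and B2M (0.3 ± 0.05) rose. HLA genes are near copies of each other, so single values are uncertain.

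The promoters of GBP1 and IFIT1 are shown because the first gene fell and the second rose while both carry the same motif. Sequences are from RefSeq on GRCh38.p14, from 250 bases before to 50 bases after the transcript start, 5′ to 3′ on the gene's strand. Capitals mark matches on either strand to the interferon-stimulated response element, searched as GAAANNGAA.
GBP1 (chr1:89065159-89065458, minus strand): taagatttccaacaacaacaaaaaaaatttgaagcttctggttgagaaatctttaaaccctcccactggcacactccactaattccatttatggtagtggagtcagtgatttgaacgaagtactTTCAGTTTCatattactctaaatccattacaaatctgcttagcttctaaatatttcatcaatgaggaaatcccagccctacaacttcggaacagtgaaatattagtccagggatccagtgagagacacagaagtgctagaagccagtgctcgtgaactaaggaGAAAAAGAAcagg
IFIT1 (chr10:89392373-89392672, plus strand): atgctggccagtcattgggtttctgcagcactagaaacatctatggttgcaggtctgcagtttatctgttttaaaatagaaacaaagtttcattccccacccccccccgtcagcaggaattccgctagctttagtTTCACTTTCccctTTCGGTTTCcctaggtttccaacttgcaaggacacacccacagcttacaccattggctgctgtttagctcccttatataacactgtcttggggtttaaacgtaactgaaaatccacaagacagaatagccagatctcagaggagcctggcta
Each promoter holds 2 matches. The motif was present in 8.29% of 27305 RefSeq promoters of this length and in 6.53% of the 10562 promoters of tested genes. It was present in 5.90% of promoters of genes called higher and in 7.03% of those called lower. Of 34 interferon-stimulated genes with a promoter in the table, 26 held a match. Matches describe these windows and show no binding.

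DNA replication genes rose together. In the list of DNA replication and G1/S genes, 29 of 35 tested members rose and 3 fell, with a median log2 fold change of 0.58. The MCM helicase, which unwinds origins, is an example: MCM3 stood at 110.04 and 108 CPM with the random hairpin and 206 and 200.5 CPM with the BAP1 hairpin (0.9 ± 0.05, adjusted p = 9.58e-08), and MCM4 went from 137 and 125 to 239 and 237 CPM (0.87 ± 0.05). FEN1, the flap endonuclease, went from 30.2 and 27.7 to 67.05 and 70.3 CPM (1.25 ± 0.07). E2F1, a transcription factor known to act on replication genes, went from 13.3 and 11.8 to 29.9 and 28.2 CPM (1.21 ± 0.08). CDC6, an origin licensing factor, went from 45.98 and 42.1 to 85.8 and 89.1 CPM (0.99 ± 0.06). In all 5 genes the groups were apart. Falls were limited to PRIM1, a primase subunit (-0.62 ± 0.09), RRM2, which makes deoxynucleotides (-0.47 ± 0.05), and GINS1 (-0.18 ± 0.06), whose call was lost without any 1 of the 4 MSTO-211H libraries (adjusted p from 0.0512 to 0.2). CCND1, cyclin D1, which opens the G1 phase, went from 268 and 248 to 552 and 515 CPM (1.05 ± 0.06, adjusted p = 1.2e-07).

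Mitotic genes did not rise with the replication genes. In the mitosis and G2/M list, 4 of 29 tested members rose and 14 fell, with a median log2 fold change of -0.18. CCNA2, cyclin A2, rose from 72.3 and 71.9 to 119.9 and 119 CPM (0.73 ± 0.05), and FOXM1, a mitotic transcription factor, by 0.3. CDC25C (from 13.2 and 15.4 to 9.57 and 9.83 CPM, -0.56 ± 0.10), TOP2A, topoisomerase II alpha (from 502 and 509.9 to 355 and 369 CPM, -0.48 ± 0.06), and CCNB1, cyclin B1 (from 215 and 228 to 174 and 181 CPM, -0.31 ± 0.05), fell. MKI67, the proliferation marker Ki-67, measured 278 and 279 CPM with the random hairpin and 231 and 233 CPM with the BAP1 hairpin and was not called. The count was 4 higher and 10 lower under DESeq2-type size factors, 2 higher and 10 lower with a GC offset, and 9 lower without random replicate 2 or shBAP1 replicate 1. Without shBAP1 replicate 2, 2 were higher. Among p53 targets, 17 of 26 tested members rose and 2 fell, with a median log2 fold change of 0.31. ZMAT3 (from 87.9 and 88.4 to 171 and 158 CPM, 0.9 ± 0.07) and MDM2, the p53 ligase (from 305 and 310.2 to 436 and 448 CPM, 0.52 ± 0.05), rose, and GADD45A fell (-0.59 ± 0.07). CDKN1A, the CDK inhibitor p21, rose from 363 and 376 to 459 and 462 CPM (0.32 ± 0.05). In the BCL2 family, 4 of 14 rose and 1 fell. In a fit of the 4 MSTO-211H libraries alone 7 were higher. HRK was the called fall, and PMAIP1, the BH3-only protein NOXA, rose (0.6 ± 0.07). Among death receptor genes, 8 of 13 rose and 3 fell, with TNFRSF21 (1.56 ± 0.09) and FAS (0.7 ± 0.08) higher and TNFRSF10B, a TRAIL receptor, lower (-0.45 ± 0.05). The rises numbered 5 by DESeq2 and without random replicate 2 or shBAP1 replicate 2.

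Promoters of MCM3 and PCNA, the sliding clamp of replication (from 76.5 and 73.4 to 128 and 120.4 CPM, 0.73 ± 0.06), are shown because each holds an E2F motif, as 10 of the 31 replication genes with a promoter did. Capitals mark this motif, TTTCCCGC, on either strand.
MCM3 (chr6:52284693-52284992, minus strand): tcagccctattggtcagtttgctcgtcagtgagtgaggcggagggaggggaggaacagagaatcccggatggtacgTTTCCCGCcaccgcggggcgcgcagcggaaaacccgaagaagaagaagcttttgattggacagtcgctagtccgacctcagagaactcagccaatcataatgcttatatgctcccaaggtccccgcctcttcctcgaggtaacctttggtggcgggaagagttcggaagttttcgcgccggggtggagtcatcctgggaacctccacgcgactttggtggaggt
PCNA (chr20:5126573-5126872, minus strand): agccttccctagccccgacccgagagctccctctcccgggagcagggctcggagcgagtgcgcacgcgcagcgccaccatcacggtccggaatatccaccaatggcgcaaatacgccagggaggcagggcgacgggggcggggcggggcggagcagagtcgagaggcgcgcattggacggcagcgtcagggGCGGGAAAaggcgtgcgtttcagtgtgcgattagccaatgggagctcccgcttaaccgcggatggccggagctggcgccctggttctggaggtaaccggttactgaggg
This motif occurred in 1.66% of the 27305 promoters and in 2.60% of the 10562 promoters of tested genes. By call, the shares were 3.56% for genes called higher, 2.31% for those called lower and 2.27% for those not called. Among genes called at 2-fold or more, the shares were 0.813% for higher and 1.82% for lower. Of 31 replication genes with a promoter, 10 held it, and all 10 were called higher. Over the whole list 29 of 35 tested members were called higher, and whether the motif has a part in the rises was not tested. Another E2F form, TTTGGCGC, occurred in 0.659% of all promoters and in 7 of the 31, of which 6 were higher and GINS1 was lower.

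Metabolic lists moved in both directions. In sterol synthesis and uptake, 19 of 27 tested members rose and 5 fell, with a median log2 fold change of 0.33. HMGCS1, an early enzyme of cholesterol synthesis, stood at 74.3 and 74.6 CPM with the random hairpin and 143 and 142 CPM with the BAP1 hairpin (0.93 ± 0.05, adjusted p = 1.05e-07). MSMO1, a sterol demethylase, fell from 39.997 and 36.4 to 18.4 and 18.6 CPM (-1.04 ± 0.08). Targets of LXR, the sterol-sensing receptor that promotes efflux, were lower in 5 of 10 and higher in 1, with the exporter ABCA1 at -0.86 ± 0.12. Respiratory chain genes rose in 24 of 38 with no called fall (median 0.23), all by less than 2-fold. At an unadjusted p under 0.05 edgeR had 2 of them lower, and limma-voom called 1 lower and DESeq2 none. Of 36 hypoxia and glycolysis genes 10 rose and 17 fell. Beside CA9 and CA12, P4HA2, a collagen prolyl hydroxylase (from 23.4 and 22.8 to 4.38 and 4.76 CPM, -2.34 ± 0.09), and MXI1, a MYC antagonist (from 35.1 and 35.05 to 7.12 and 6.87 CPM, -2.33 ± 0.10), fell more than 4-fold. PDK1 (-0.61 ± 0.05) and LDHA (-0.29 ± 0.05) fell by less. Without random replicate 2, 6 of this list were called higher. Genes of the ATF4 and unfolded protein responses were lower in 15 of 30 and higher in 6, all by less than 2-fold. In the list of NRF2 targets, 6 of 21 rose and 7 fell, with 4 lower without shBAP1 replicate 2. GCLC, which limits glutathione synthesis, fell from 57.6 and 53.9 to 25.2 and 22.3 CPM (-1.23 ± 0.07), and AKR1C1, an aldo-keto reductase with near copies, rose (1.9 ± 0.17).

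Metallothioneins, small proteins that bind zinc and copper, rose in MSTO-211H for 3 of the 4 tested. In the whole list of metallothionein and zinc genes, 4 of 8 rose and 3 fell, against 21.7% higher and 24.5% lower over all genes. No fall was called by DESeq2, without a filter, or without random replicate 2 or shBAP1 replicate 2. MT2A stood at 107 and 96.1 CPM with the random hairpin and 327 and 319 CPM with the BAP1 hairpin (1.67 ± 0.07, adjusted p = 1.65e-08). MT1X went from 7.703 and 6.46 to 21.3 and 19.2 CPM (1.51 ± 0.11) and MT1G from 1.58 and 1.45 to 4.76 and 4.098 CPM (1.54 ± 0.18). Both knockdown libraries lay above both controls for all 3, though their sequences are close and reads may have been split. SLC30A1, a zinc exporter, was called lower (-0.15), but not by DESeq2 (adjusted p = 0.33) or without any 1 of the 4 MSTO-211H libraries (0.0758 to 0.251). Promoters of MT2A and MT1X are shown with the metal response element in capitals, searched as TGCGCNC on both strands.
MT2A (chr16:56608334-56608633, plus strand): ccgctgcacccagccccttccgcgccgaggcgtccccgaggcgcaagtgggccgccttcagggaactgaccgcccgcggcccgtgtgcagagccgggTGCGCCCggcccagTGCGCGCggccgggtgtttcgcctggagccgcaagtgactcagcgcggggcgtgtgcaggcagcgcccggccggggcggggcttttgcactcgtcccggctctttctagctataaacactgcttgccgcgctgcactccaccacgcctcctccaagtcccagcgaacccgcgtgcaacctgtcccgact
MT1X (chr16:56682220-56682519, plus strand): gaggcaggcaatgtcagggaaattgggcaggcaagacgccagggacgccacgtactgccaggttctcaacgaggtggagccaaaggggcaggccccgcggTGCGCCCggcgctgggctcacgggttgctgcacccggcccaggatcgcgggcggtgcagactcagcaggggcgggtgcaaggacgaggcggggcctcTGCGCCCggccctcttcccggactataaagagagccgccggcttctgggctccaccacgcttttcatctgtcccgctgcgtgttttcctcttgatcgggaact
Each holds 2 matches. This short motif was common, with a match in 19.97% of the 27305 promoters and in 31.4% of the 10562 promoters of tested genes. Of 6 list members with a promoter, 3 held it: MT1X and MT2A, called higher, and SLC30A3, called lower.

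The response in MSTO-211H was set against that in H2810, where BAP1 fell to a like degree (-2.79 against -2.61, difference 0.18 ± 0.18, adjusted p = 0.532). Of 7327 genes called in MSTO-211H, 4198 were also called in H2810, which is 57.3% of the MSTO-211H calls and 57.7% of the 7277 H2810 calls. Of these shared genes 3519 changed in the same direction and 679 in opposite directions. The difference of the 2 responses was itself called for 4397 genes (27.7%), 1783 higher in MSTO-211H (11.2%) and 2614 lower (16.5%). Among genes called at 2-fold or more in MSTO-211H, 674 had a called difference (45.9%). These genes were picked by their MSTO-211H fold change, which also enters the difference, so a share above that over all genes is no separate result. The lines differ in much beside their hairpins, and the origin of these differences was not tested.

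In H2810, rises were called for 32 of 35 replication genes (2 fell) and for 24 of 29 mitotic genes. The difference was called for 16 of 35 replication genes, 6 higher and 10 lower in MSTO-211H, but for 26 of 29 mitotic genes, 25 of them lower in MSTO-211H. CCNB1 had a log2 fold change of -0.31 in MSTO-211H and 0.49 in H2810 (difference -0.81 ± 0.08, adjusted p = 2.45e-05). Interferon-stimulated genes differed in the same sense, with 26 of 43 lower in MSTO-211H and 4 higher. ISG15 rose by 1.18 in MSTO-211H and by 2.01 in H2810 (difference -0.83 ± 0.11). None of 32 clustered protocadherins had a called difference by edgeR, DESeq2 or limma-voom, and 4 had an unadjusted p under 0.05 by edgeR: PCDHB2 measured -1.1 and -1.33. HOX genes had a called difference for 12, of which 11 were lower in MSTO-211H. HOXB9 was at -0.36 in MSTO-211H and 0.47 in H2810 (difference -0.84 ± 0.10), whereas HOXC13 fell in both (-1.4 and -1.14, difference -0.26 ± 0.19, adjusted p = 0.344).

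**Figure D5:**
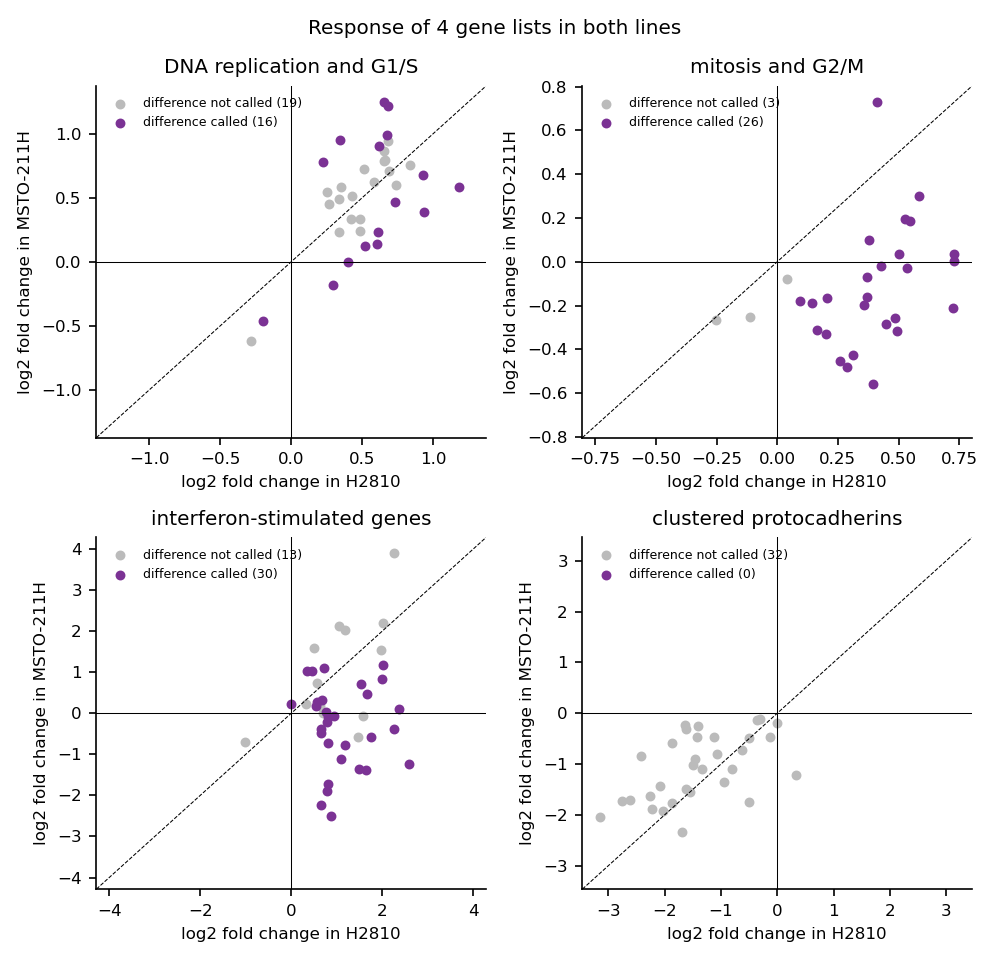
Log2 fold change with the BAP1 hairpin in MSTO-211H against that in H2810 for members of 4 gene lists, with a diagonal of equal response. Most mitotic and interferon-stimulated genes lie on the side of a higher response in H2810 (25 of 29 and 26 of 43 with a called difference), and no clustered protocadherin has a called difference.

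The responses of ID3, SMAD6 and MT2A were higher in MSTO-211H. ID3 was at 2.31 in MSTO-211H and -0.43 in H2810 (difference 2.74 ± 0.14, adjusted p = 2.99e-07), and SMAD6 at 1.69 and -0.26 (difference 1.95 ± 0.17). MT2A was at 1.67 and -0.39 (difference 2.06 ± 0.09, adjusted p = 1.98e-07). Each of these genes rose in MSTO-211H and had a negative fold change in H2810. Of 39 ID and BMP genes 12 had a higher and 5 a lower response in MSTO-211H. FST fell in MSTO-211H and measured 0.59 in H2810 (difference -2.46 ± 0.30). AXL and ITGA4 fell more in MSTO-211H, with differences of -1.46 ± 0.07 and -1.48 ± 0.09. Falls of CCN2 and DKK1 were found in both lines, at -2.54 and -1.33 in H2810. For DKK1 the difference was -0.01 ± 0.08 (adjusted p = 0.947). SOD2 rose by like amounts (1.42 and 1.46, difference -0.04 ± 0.07, adjusted p = 0.711), while BIRC3 rose more in MSTO-211H (difference 0.87 ± 0.07).

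Calls in MSTO-211H were also related to base composition and chromosome. From the lowest to the highest quintile of transcripts by GC content, the share called higher went from 17.2 to 28.0% and the share called lower from 32.2 to 18.5%, with medians from -0.10 to 0.07. In H2810 the medians of the same quintiles lay between -0.04 and -0.01. Chromosome 22 had 30.8% of its tested genes higher and 13.2% lower, and chromosome 4 had 16.7% higher and 29.6% lower. With a GC offset 7218 genes were called, 90.2% of the calls were shared, and every shared call kept its direction.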

How the data were processed

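Per the labels' protocols, RNA was isolated with a Qiagen kit, poly-A RNA was turned into TruSeq mRNA libraries, and single-end reads came from an Illumina HiSeq instrument. Submitters' processing notes name TopHat2 2.0.12, HTSeq and DESeq2 without their roles. The human build, the strand setting and the handling of reads with several matches are not given in the sources used here. The authors deposited unnormalized counts, 1 whole number per Ensembl gene and library. Coordinates in the file match the annotation of GRCh38, and 1 line without a gene name held 0 counts and was left out.

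All 8 knockdown libraries were fitted together in edgeR 4.0.16 under R 4.3.3: filterByExpr, TMM scaling, a quasi-likelihood F test of shBAP1 against random hairpin within MSTO-211H, and Benjamini-Hochberg adjustment over 15872 genes. Genes were called at an adjusted p under 0.05. Levels are CPM, counts scaled to the TMM-adjusted library size, in which lengths are not considered. Standard errors (SE) were derived from the fold change and its F statistic. Differences between lines are interaction contrasts of the same fit. On simulated counts with 198 of 15604 genes changed 2-fold, the script recovered 77.3% and made 8 false calls. The simulation used a single common spread for all libraries and changed few genes. Its false calls therefore give no error rate for the calls in these data. DESeq2 1.42.0, limma 3.58.1, other scalings and filters, a replicate block, a fit of the 4 MSTO-211H libraries and leaving out each library were alternatives. Same-numbered libraries deviated together weakly (correlation 0.0338 in MSTO-211H and -0.063 in H2810).

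Lists held 1616 entries in 59 lists, of which 1601 matched a gene and 1356 were tested. Members and lists were chosen with earlier results of these data known. Genes named were BAP1, the 12 largest rises and falls with a mean log2 CPM of 1 or more, up to 4 largest called members per list, 8 near-silent genes and 6 differences in each direction, the 10 largest CPM differences and the 5 longest runs. Some items that the rule names are not reported here. Other genes, mostly further members of the lists, were chosen after their values were seen. Intervals and floors cover counting error only. Counts for mouse tumours and for drug-treated lines were not used here.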

Additional observations from a re-analysis of the deposited data

Results flagged for a closer look

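The response to the BAP1 hairpin differed between MSTO-211H and H2810 by the interaction test for 4397 genes, and the 6 largest such differences in each direction among genes also called in MSTO-211H follow. Responses higher in MSTO-211H were those of C4BPA, a complement inhibitor (difference 5.13 on the log2 scale), ERVFRD-1 (4.73), ID2 (4.16), MYLK3, a myosin kinase (4.02), LINC02593 (3.67) and the pseudogene SSPOP (3.47). C4BPA rests on 1 summed count with the random hairpin and 58 with the BAP1 hairpin in MSTO-211H, a ratio of 55.5-fold (95% interval 9.58 to 2231), while H2810 had 560 to 756 counts in its 4 libraries. Responses lower in MSTO-211H were those of MX1, an interferon-stimulated GTPase (-3.82), CRYBG1 (-3.56), MPP1, a membrane scaffold (-3.52), GBP1 (-3.38), the somatostatin receptor SSTR1 (-3.23) and OAS1, an RNA sensor (-3.03). For MX1 the fold change was -1.23 in MSTO-211H and 2.59 in H2810, and for OAS1 -1.39 and 1.64.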

How the results depend on the processing

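BAP1 fell and its call held under every alternative run. The number of called genes was 7321 with DESeq2-type size factors in edgeR, 7068 without a filter, 6905 with a stricter filter (at least 50 counts in 2 libraries), 5724 with DESeq2, 7320 with limma-voom and 8546 with the 4 MSTO-211H libraries alone. It lay between 5522 and 5732 when an MSTO-211H library was left out and between 7518 and 7646 when an H2810 library was left out. With the replicate number as a block 7769 genes were called. The weak correlations of same-numbered libraries cannot tell whether these shared a culture or batch. The number called higher and at least 2-fold fell to 287 from 438 under the stricter filter, which tested 12799 genes. Rises were 46.9% of the calls, 51.5% with the other size factors and 45.1% with the GC offset, which was chosen after seeing the data. In every alternative the shared calls kept their direction. Of 357 genes followed besides BAP1, 15 lost their call with DESeq2, 12 with the GC offset and 17 to 21 when an MSTO-211H library was left out. With 2 libraries per group, depth limits what can be said of genes with a mean log2 CPM under 0, where 17.4% were called.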

Other observations

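Further lists held called genes in both directions, against 21.7% called higher and 24.5% called lower over all genes. Of 35 axon guidance genes tested, 13 rose and 8 fell, with a median of 0.15, and without shBAP1 replicate 1 the falls numbered 5. SEMA3A, a secreted semaphorin, went from 27.1 and 26.6 to 71.9 and 71.1 CPM (1.41 ± 0.08), and UNC5B, a netrin receptor, from 0.335 and 0.482 to 3.56 and 3.39 CPM (3.07 ± 0.21). SEMA7A, a membrane-anchored semaphorin, fell from 34.8 and 31.9 to 9.23 and 10.7 CPM (-1.74 ± 0.11), and PLXNC1, its receptor, from 10.1 and 9.21 to 2.84 and 2.203 CPM (-1.94 ± 0.14). Ligand and receptor were thus both lower. Among ion and solute transport genes, 7 of 25 rose and 10 fell, with 4 higher without shBAP1 replicate 1. KCNMA1, a calcium-activated potassium channel, went from 31.8 and 33.2 to 5.43 and 6.79 CPM (-2.4 ± 0.11), and ATP1B1, a sodium pump subunit, from 51.3 and 50.1 to 113 and 102 CPM (1.08 ± 0.06). Among imprinted and oncofetal genes, 5 of 20 rose and 4 fell, close to the shares over all genes. HMGA2, a chromatin protein of embryonic tissue, stood at 31.2 and 31.4 CPM with the random hairpin and 129 and 121 CPM with the BAP1 hairpin (2.0 ± 0.05).

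Polyadenylated histone transcripts rose in 7 of 11 and fell in 2. H1-2, a replication-linked linker histone, rose from 2.44 and 3.04 to 5.87 and 5.95 CPM (1.11 ± 0.16). Among checkpoint ligands, 5 of 10 fell and 3 rose, and the falls numbered 3 without any 1 of the 4 MSTO-211H libraries. CD274, the ligand PD-L1, went from 2.01 and 1.83 to 0.866 and 0.661 CPM (-1.33 ± 0.25), and VSIR, the checkpoint protein VISTA, which mesothelium expresses, rose from 35.3 and 32.97 to 45.1 and 41.9 CPM (0.35 ± 0.07). The response of VSIR differed between lines, with -0.82 in H2810 (difference 1.17 ± 0.10, adjusted p = 1.04e-05). Of 26 lysosomal genes 11 rose and 6 fell, with LAMP2 at -1.05 ± 0.05 and the autophagy receptor SQSTM1 at 0.6 ± 0.05. Among iron and ferroptosis genes, 5 of 15 rose and 7 fell (3 rises by DESeq2 or without shBAP1 replicate 2), with ferritin heavy chain, FTH1, lower from 1104 and 1099.6 to 692 and 689.8 CPM (-0.67 ± 0.05) and the transferrin receptor TFRC higher (0.54 ± 0.05).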
